A study of Homo sapiens with 18 samples.

Results

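The genes described here are the transcriptional targets of ATF4, the output of the integrated stress response, in 2 Ewing sarcoma cell lines exposed to YK-4-279. The list held 33 genes named by symbol, and 32 of them had at least 1 probe set assigned to a single gene, out of 12750 genes on the array. SESN2 was not analysed here. The study used TC32 and TC71, established lines of Ewing sarcoma, a tumour of bone and soft tissue in which EWS-FLI1, a fusion of an RNA-binding protein with an ETS factor, acts as the driver, and the small molecule YK-4-279, developed to block the contact of that fusion with RNA helicase A. Each line had 3 untreated parental arrays, 3 arrays of parental cells given 3 µM of the compound for up to 72 h (called 72 h here), and 3 arrays of resistant cells selected over 7 months in doses that rose to 3 µM. The resistant arrays are named by clone, C1, C4 and CP in TC32 and C3, C4A and C5 in TC71, and are described as treated without a dose or time at harvest. Parental cells kept for the same time without compound were not among the groups, and nothing states that replicates came from separate cultures. The p-values therefore reflect the spread among these arrays alone, which may be technical in the parental and 72 h groups. The fit pools 1 spread per gene over all 6 groups. That spread includes differences between the clones, also in comparisons that do not use the clones.

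When the initiation factor eIF2 is phosphorylated by one of its kinases (GCN2, PERK, PKR or HRI), general translation drops and the ATF4 mRNA is translated more. ATF4 pairs with C/EBP-family and other bZIP proteins and switches on genes for amino acid import, amino acid and one-carbon synthesis, tRNA charging and further transcription factors such as CHOP (DDIT3). Feedback genes, among them PPP1R15A and TRIB3, then dampen the pathway. Because ATF4 is controlled at translation, the RNA of its targets is a more usual readout than its own RNA.

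ATF4 dimers bind a short element, the C/EBP-ATF response element, searched here as TGATGNAA and its reverse complement TTNCATCA in the 250 bases upstream of each RefSeq transcription start (GRCh38.p14). Of the 32 genes, 28 had an entry, and PSPH, SHMT2, SLC7A11 and NUPR1 had none. The letters were found for 7 of the 28 genes (25%) against 3.89% of all 27305 genes of the promoter table. The 30-base windows that hold them are printed 5′ to 3′ on the gene's strand with the element in capitals, because they show the shared letters in genes of different function. The start of the element is given from the transcription start.
ATF3 (a bZIP repressor, chr1:212565205-212565234, + strand, element at -191): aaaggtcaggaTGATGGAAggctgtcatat
CEBPG (a C/EBP partner of ATF4, chr19:33374060-33374089, + strand, element at -42): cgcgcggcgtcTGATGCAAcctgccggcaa
CHAC1 (glutathione breakdown, chr15:40953251-40953280, + strand, element at -209): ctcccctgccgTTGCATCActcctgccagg
ASNS (asparagine synthetase, chr7:97872458-97872487, - strand, element at -68): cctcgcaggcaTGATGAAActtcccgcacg
SLC1A5 (glutamine transporter, chr19:46784893-46784922, - strand, element at -97): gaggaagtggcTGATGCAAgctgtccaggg
GARS (glycyl-tRNA synthetase, chr7:30594834-30594863, + strand, element at -33): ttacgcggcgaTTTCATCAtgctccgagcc
AARS (alanyl-tRNA synthetase, chr16:70289675-70289704, - strand, element at -187): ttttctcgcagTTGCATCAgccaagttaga

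The palindromic cAMP response element, TGACGTCA, was found for 1 of the 28 genes, PPP1R15A, which encodes the stress-induced regulatory subunit of the eIF2 phosphatase, against 2.03% of all genes. Its window (chr19:48872352-48872381, + strand, element at -58) is printed because the C/EBP-ATF letters were not in that promoter window.
PPP1R15A: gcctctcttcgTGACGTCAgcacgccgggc

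At 72 h in TC71, the 7 genes with the C/EBP-ATF letters had a median log2 change of 1.92 (from 1.06 to 3.47), and the 21 genes without them had a median of 1.34 (from 0.18 to 3.89). In TC32 the medians were 0.50 and 0.42. The ranges overlapped in both lines, and the difference was not tested.

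The deposited values are log2 levels of each probe set relative to its own median over the 18 arrays, so 0 is that median, 1 unit is a doubling, and levels of different genes cannot be compared. The same limit prevents a check of the Ewing sarcoma markers as levels. Of 15 markers of blood, endothelial, epithelial, fibroblast and liver cells, 9 stayed within 0.1 of their median in every array, and the sum over the markers ran from -7.88 to 2.45 in TC32 parental arrays, from -4.80 to -3.07 at 72 h and from -1.01 to 6.94 in the clones, and in TC71 from 1.95 to 4.14, from 0.25 to 1.49 and from 0.50 to 9.20. PTPRC, the CD45 gene, stood at 3.31 in clone C1, 4.44 in CP and 5.13 in C3, where the median value of the ATF4 targets was -0.51, -0.36 and -0.27. Several arrays stood apart from their group. TC32 parental replicate 1 was nearer to TC71 parental replicate 1 than to its own group over 3159 variable probe sets, and on 22 genes that separated the lines over the other 17 arrays it fell on the TC32 side at 10 and on the TC71 side at 12. TC71 parental replicate 2 was nearest to TC71 72 h replicate 1, and the closest 2 arrays of the series were replicates 1 and 3 of TC71 at 72 h. Clone C4A was nearest to TC71 72 h replicate 1, C3 to TC71 parental replicate 2, and both C5 of TC71 and C1 of TC32 to TC32 parental replicate 1. These clones were far from any array, with root mean square differences of 1.27, 1.42, 1.14 and 1.12 against 0.284 for the closest 2 arrays.

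**Figure D1:**
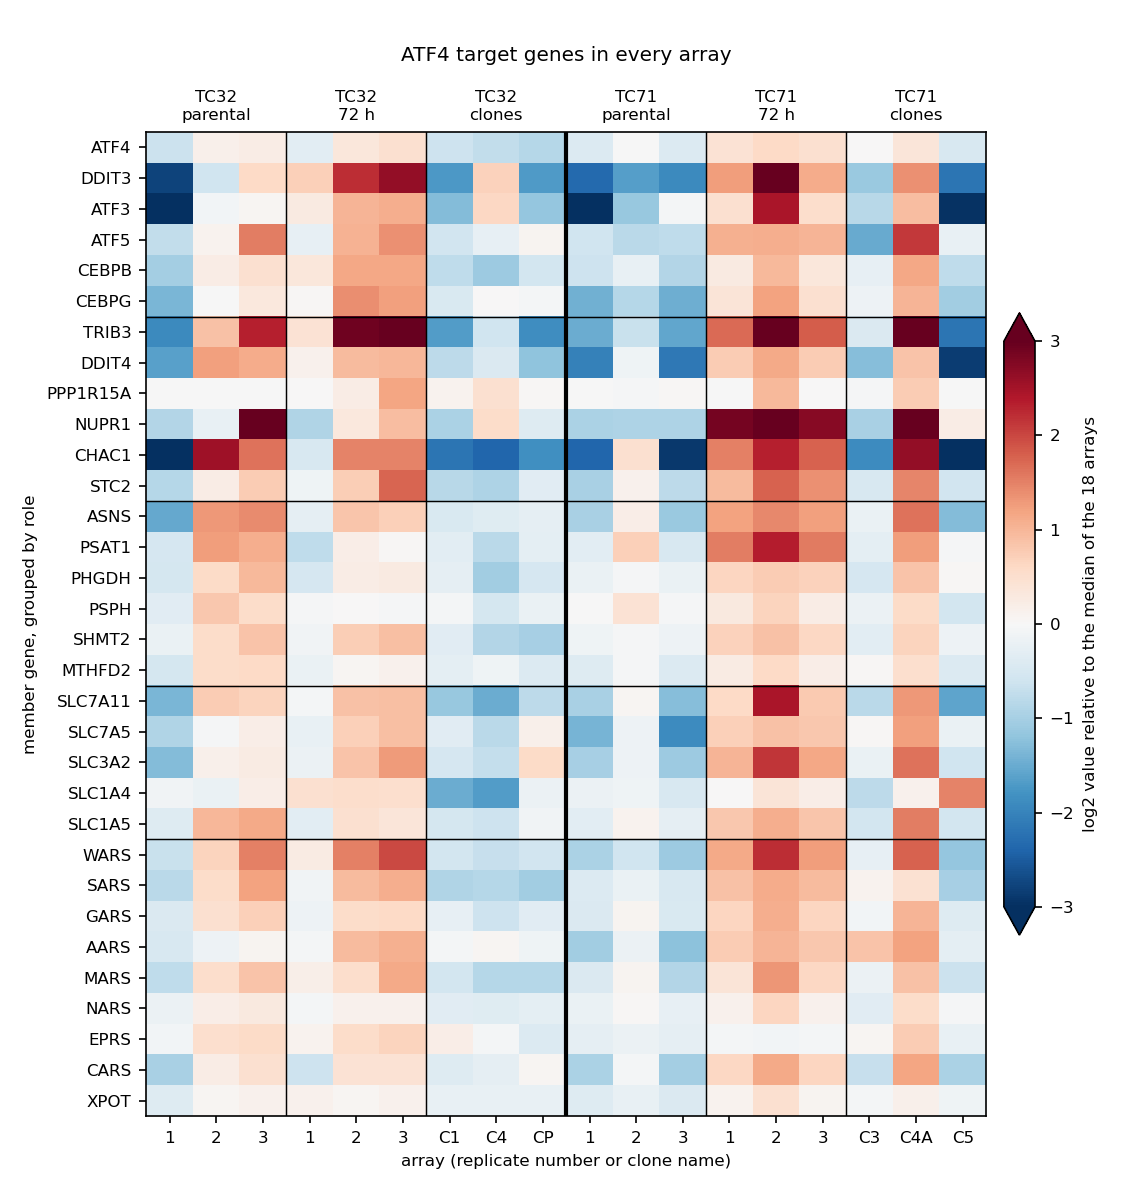
Log2 value, relative to the median of the 18 arrays, of the 32 measured ATF4 targets (rows, grouped by role) in each array (columns, 3 per group). Red marks values above and blue values below the median, with the scale ending at 3 and -3. The TC71 72 h arrays and clone C4A are mostly red. TC32 parental replicate 1, TC71 parental replicates 1 and 3 and the clones other than C4A are mostly blue.

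After 72 h with YK-4-279, ATF4 targets stood above the parental level in the average of both lines, with DDIT3 (CHOP, a pro-apoptotic factor), CEBPG, AARS and XPOT (the tRNA export receptor) past the threshold. The log2 change, averaged over the lines, was 3.34 ± 0.75 (SE) for DDIT3, 1.60 ± 0.38 for CEBPG, 1.26 ± 0.27 for AARS and 0.37 ± 0.09 for XPOT. These 4 of 32 genes rose in limma's moderated test at an adjusted p (Benjamini-Hochberg over 12750 genes) under 0.05, where 1.53% of all genes did, and none fell, against 1.45% of all genes. The adjusted p was 0.0374, 0.0433, 0.0327 and 0.0491 in that order. Of the 32 genes 31 had a change above 0, PSPH being the exception, where 55.1% of all genes did, the median was 0.91 against 0 for all genes, and 18 had an unadjusted p under 0.05 in the upward direction, as 9% of all genes did. In bulk RNA a change in the share of cells that respond and a change in RNA per cell cannot be told apart. With TC71 72 h replicates 1 and 3 averaged into 1 array the count was 0, with 153 of 12750 genes called in either direction against 380. Leaving out 1 array gave 0 genes in 9 of 12 fits, TC32 parental replicate 1 among them (median change 0.58). Those 9 fits called from 101 to 228 of all genes. The count was 5 without TC32 72 h replicate 1, 4 without TC32 parental replicate 3 and 2 without TC71 parental replicate 2, the last with 218 genes called.

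In TC71 alone the change was above 0 for 32 of 32 genes (64.1% of all genes), with a median of 1.58, and it was at least 2-fold for 22 of them, as for 1.89% of all genes. Every TC71 72 h array lay above every TC71 parental array for 30 of 32 genes, against 13.3% of all genes. The exceptions were PPP1R15A and PSPH. None of the 32 passed the adjusted threshold in limma, where 0.0784% of all genes rose and 0.0706% fell, while 27 had an unadjusted p under 0.05 with a higher value (5.35% of all genes). The largest changes were 4.22 ± 1.27 for NUPR1 (adjusted p = 0.212), 3.89 ± 1.07 for DDIT3 (0.176), and 3.47 for both TRIB3 (0.337) and CHAC1 (0.465).

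In TC32 the change at 72 h was above 0 for 25 of 32 genes (41.4% of all genes), with a median of 0.41, and 4 genes were at least 2-fold higher, against 2.03% of all genes. The 4 were DDIT3, ATF3, TRIB3 and CEBPG. None passed the adjusted threshold in limma (1.14% of all genes rose and 1.07% fell), 3 had an unadjusted p under 0.05, DDIT3, CEBPG and AARS (7.75% of all genes with a higher value), and the groups did not overlap for DDIT3, ATF3, PPP1R15A and SLC1A4, 4 genes, against 10.4% of all genes. This direction rested on TC32 parental replicate 1, which was the lowest parental array for 30 of 32 genes (38.5% of all genes) and at least 2-fold below both others for 19 (1.31%). Without that array only 13 of 32 genes were higher at 72 h, where 40.8% of all genes were, and the median change was -0.10. Among the TC32 72 h arrays, replicate 1 was the lowest of its group for 30 genes, against 26% of all genes, and lay below parental replicates 2 and 3 for 24, against 23.5%.

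**Figure D2:**
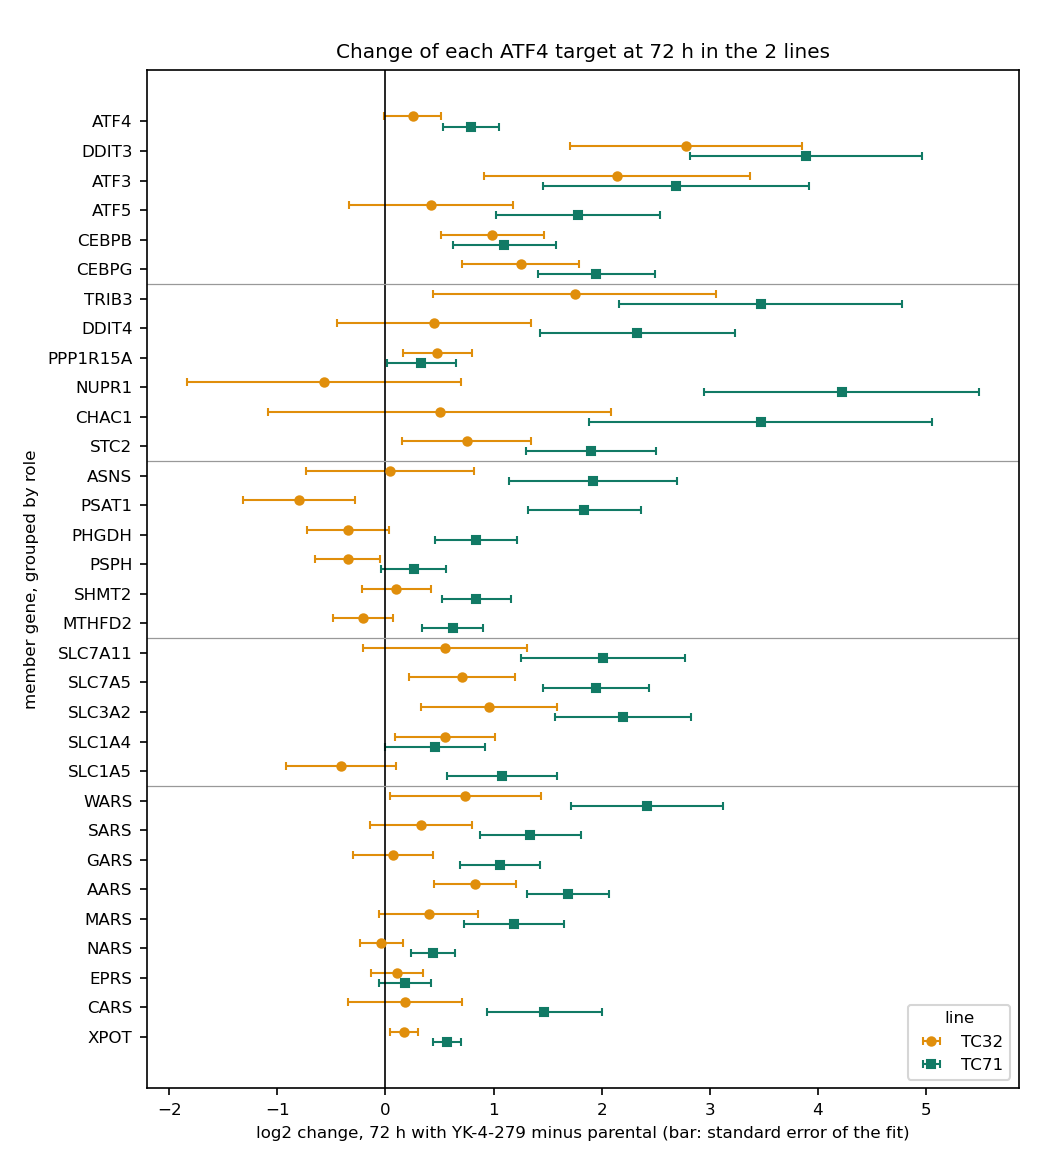
Log2 change from parental cells to cells given YK-4-279 for 72 h for each of the 32 ATF4 targets, in TC32 (circles) and TC71 (squares), with the standard error of the fit as bars. All TC71 points lie above 0 and reach 4.22 for NUPR1, while TC32 points run from -0.80 for PSAT1 to 2.78 for DDIT3.

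The 72 h change was smaller in TC32 than in TC71 for 30 of 32 genes (62.7% of all genes) with a median difference (TC32 minus TC71) of -1.06. Without TC32 parental replicate 1 the median was -1.59 and 17 genes had an unadjusted p under 0.05 with a lower value, as 4.60% of all genes did. Without that array and TC71 parental replicate 2, a choice made after seeing the data, the median was -1.75 and 21 genes did (4.60% of all genes), 1 of them past the adjusted threshold. At that threshold 77 of 12750 genes were then called, against 48 with all arrays. With all arrays none of the differences passed the adjusted threshold in limma (0.141% of all genes did with a lower value and 0.235% with a higher one), and 4 had an unadjusted p under 0.05 in that direction, as 3.87% of all genes did. The 4, named after their values were seen, were NUPR1 (-4.79 ± 1.80, adjusted p = 0.470), PSAT1 (-2.63 ± 0.74, 0.221), PHGDH (-1.19 ± 0.54, 0.618) and XPOT (-0.40 ± 0.18, 0.624). Across the 32 genes the changes of the lines, which share no arrays, had a Pearson r of 0.48 and a Spearman rho of 0.49. Over all 12750 genes the values were 0.37 and 0.30. These are descriptions over genes measured on the same arrays.

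Among the transcription factors, all 6 had a change above 0 in both lines. ATF4, the bZIP factor at the head of the list (chromosome 22, 39916568 to 39918685 in the array annotation, for which the sources used here give no build), had the smallest average change of the 6 factors. In TC32 it measured -0.64, 0.16 and 0.23 in the parental arrays, -0.32, 0.34 and 0.49 at 72 h and -0.62, -0.74 and -0.85 in clones C1, C4 and CP. In TC71 it measured -0.41, -0.02 and -0.42 in the parental arrays, 0.43, 0.60 and 0.48 at 72 h and 0.02, 0.37 and -0.47 in clones C3, C4A and C5. The TC71 72 h arrays lay above all TC71 parental arrays, while in TC32 the parental and 72 h arrays overlapped and all 3 clones lay below the 72 h arrays. The change at 72 h was 0.25 ± 0.26 in TC32 and 0.79 ± 0.26 in TC71, with adjusted p of 0.929 and 0.266 in limma.

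DDIT3 encodes CHOP, a C/EBP-family factor that promotes cell death under lasting stress. In TC32 its values were -2.78, -0.60 and 0.60 in the parental arrays, 0.72, 2.21 and 2.63 at 72 h and -1.73, 0.69 and -1.71 in clones C1, C4 and CP. In TC71 they were -2.33, -1.65 and -1.92 in the parental arrays, 1.26, 3.41 and 1.12 at 72 h and -1.12, 1.36 and -2.19 in clones C3, C4A and C5. Every 72 h array lay above every parental array of its line, in TC32 by a narrow margin, and clones C4 and C4A lay far above the other clones. Its probe set, on the minus strand of chromosome 12 (57910376 to 57914294), abuts and slightly overlaps the annotated interval of MARS, the methionyl-tRNA synthetase gene, on the other strand (57881866 to 57910433).

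ATF3 is a bZIP repressor induced by many stresses. TC32 arrays measured -4.01, -0.08 and 0.06 in the parental arrays, 0.28, 1.02 and 1.09 at 72 h and -1.30, 0.61 and -1.16 in clones C1, C4 and CP. TC71 arrays measured -3.41, -1.13 and -0.06 in the parental arrays, 0.49, 2.44 and 0.52 at 72 h and -0.84, 0.92 and -2.97 in clones C3, C4A and C5. The 72 h arrays were above all parental arrays in both lines, yet parental replicate 1 of each line lay far below the other parental arrays, and the changes of 2.14 ± 1.23 and 2.69 ± 1.23 had adjusted p of 0.502 and 0.470.

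CEBPG and CEBPB are C/EBP factors, the first a frequent partner of ATF4 and the second a regulator of differentiation and inflammation. CEBPG measured -1.38, -0.02 and 0.32 in the parental arrays, 0.04, 1.40 and 1.24 at 72 h and -0.45, 0.02 and -0.05 in clones C1, C4 and CP in TC32. In TC71 CEBPG measured -1.43, -0.86 and -1.47 in the parental arrays, 0.39, 1.21 and 0.49 at 72 h and -0.15, 1.01 and -1.05 in clones C3, C4A and C5. The TC71 groups did not overlap, and in TC32 the lowest 72 h array fell among the parental ones.
CEBPB values in TC32 were -1.02, 0.22 and 0.48 in the parental arrays, 0.35, 1.15 and 1.16 at 72 h and -0.77, -1.09 and -0.55 in clones C1, C4 and CP. Those in TC71 were -0.61, -0.22 and -0.88 in the parental arrays, 0.27, 0.98 and 0.33 at 72 h and -0.24, 1.16 and -0.77 in clones C3, C4A and C5. In TC32 every clone lay below every 72 h array, and in TC71 clone C4A lay above all 3 of them. ATF5, a further bZIP target, changed by 0.42 in TC32 and 1.78 in TC71, and 1 of its 3 probe sets, aligned to the opposite strand of the others, was flat in every array (SD 0.0376) and pulls this mean down.

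**Figure D3:**
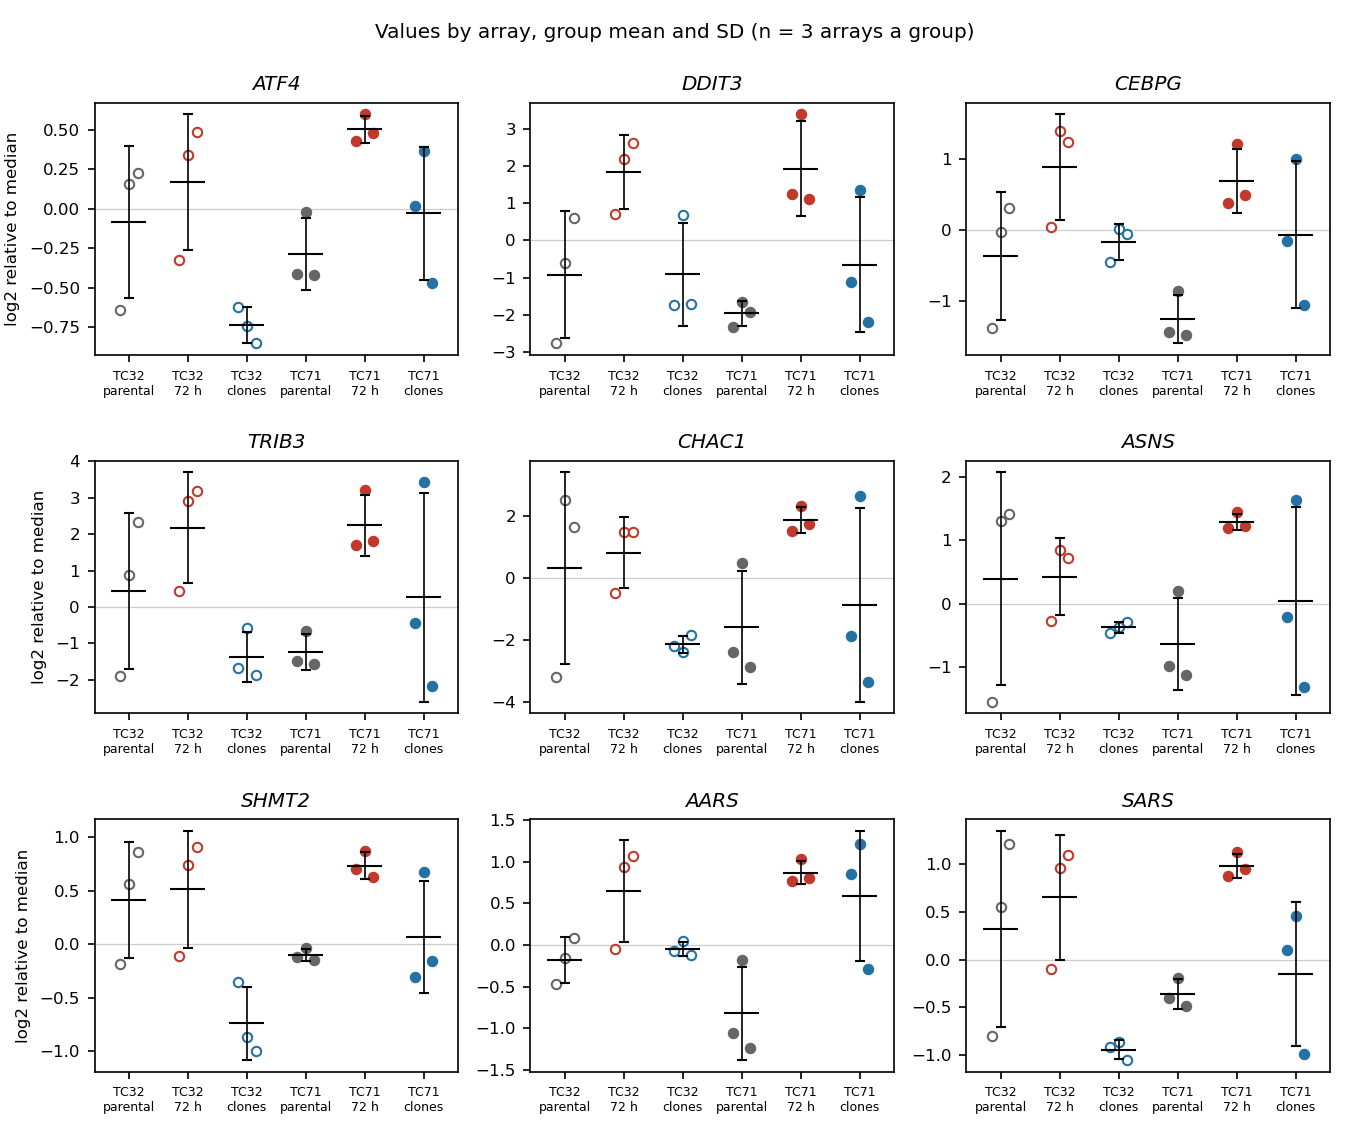
Log2 values of 9 ATF4 targets in each array (points) by group, with the group mean (line) and SD (bar, n = 3). TC32 points are open and TC71 points filled. Most panels show the wide TC32 parental group, the raised TC71 72 h group and 1 high clone, C4A, among the TC71 clones.

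The regulators and feedback genes held the largest changes in TC71, with a median of 2.90 over 6 genes against 0.49 in TC32. TRIB3 is a pseudokinase that restrains ATF4 and CHOP. In TC32 it measured -1.90, 0.87 and 2.33 in the parental arrays, 0.44, 2.91 and 3.19 at 72 h and -1.67, -0.59 and -1.87 in clones C1, C4 and CP. In TC71 TRIB3 measured -1.48, -0.66 and -1.57 in the parental arrays, 1.69, 3.20 and 1.82 at 72 h and -0.44, 3.43 and -2.18 in clones C3, C4A and C5. The TC71 groups did not overlap, and C4A exceeded every 72 h array of its line. In TC32 parental replicates 2 and 3 lay within the range of the 72 h arrays.

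CHAC1 breaks down glutathione. Its values in TC32 were -3.21, 2.54 and 1.64 in the parental arrays, -0.49, 1.48 and 1.49 at 72 h and -2.19, -2.38 and -1.85 in clones C1, C4 and CP. Its TC71 values were -2.38, 0.49 and -2.89 in the parental arrays, 1.51, 2.34 and 1.76 at 72 h and -1.88, 2.64 and -3.37 in clones C3, C4A and C5. TC32 parental replicates 2 and 3 were as high as the TC71 72 h arrays, the TC32 groups overlapped, and all clones but C4A were low.

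DDIT4 (REDD1) inhibits the growth kinase complex mTORC1. TC32 gave -1.62, 1.22 and 1.12 in the parental arrays, 0.14, 0.94 and 0.99 at 72 h and -0.79, -0.44 and -1.21 in clones C1, C4 and CP. TC71 gave -2.03, -0.14 and -2.14 in the parental arrays, 0.77, 1.14 and 0.76 at 72 h and -1.28, 0.86 and -2.85 in clones C3, C4A and C5. The 72 h arrays of TC71 exceeded the parental ones, and those of TC32 all lay below parental replicates 2 and 3. The changes were 0.45 ± 0.90 in TC32 and 2.33 ± 0.90 in TC71 (adjusted p = 1 and 0.350).

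NUPR1 is a small stress-induced chromatin protein. The TC32 arrays read -0.87, -0.22 and 3.13 in the parental arrays, -0.91, 0.31 and 0.92 at 72 h and -0.96, 0.55 and -0.38 in clones C1, C4 and CP. The TC71 arrays read -0.95, -0.93 and -0.93 in the parental arrays, 2.87, 4.24 and 2.74 at 72 h and -0.98, 4.65 and 0.22 in clones C3, C4A and C5. In TC71 the parental arrays were nearly equal and all 72 h arrays were far above them, while in TC32 the highest value was a parental one. C4A had the highest value of the series.

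STC2 is a secreted glycoprotein hormone. In TC32 the values were -0.86, 0.22 and 0.77 in the parental arrays, -0.12, 0.74 and 1.75 at 72 h and -0.83, -0.93 and -0.33 in clones C1, C4 and CP. In TC71 the values were -0.97, 0.12 and -0.78 in the parental arrays, 0.94, 1.78 and 1.36 at 72 h and -0.49, 1.46 and -0.58 in clones C3, C4A and C5. The TC71 72 h arrays lay above all parental arrays, the TC32 groups overlapped, and C4A was within the TC71 72 h range. PPP1R15A changed by 0.48 in TC32 and 0.33 in TC71, and its 2 probe sets disagreed: one was flat (0.03 and 0.02), the other changed by 0.93 and 0.63.

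Enzymes of amino acid and one-carbon metabolism had the lowest median of the 5 roles at 72 h in both lines, with a median of -0.28 in TC32 and 0.84 in TC71 over 6 genes. ASNS makes asparagine. In TC32 ASNS measured -1.54, 1.31 and 1.41 in the parental arrays, -0.27, 0.84 and 0.72 at 72 h and -0.46, -0.37 and -0.28 in clones C1, C4 and CP. In TC71 ASNS measured -0.97, 0.20 and -1.12 in the parental arrays, 1.20, 1.44 and 1.23 at 72 h and -0.20, 1.63 and -1.30 in clones C3, C4A and C5. The TC71 72 h arrays were close together and above all parental arrays, and in TC32 parental replicates 2 and 3 lay above all 72 h arrays.

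SHMT2 makes glycine and one-carbon units in mitochondria. TC32 values were -0.19, 0.56 and 0.86 in the parental arrays, -0.11, 0.74 and 0.91 at 72 h and -0.35, -0.87 and -1.0 in clones C1, C4 and CP. TC71 values were -0.12, -0.04 and -0.15 in the parental arrays, 0.70, 0.87 and 0.63 at 72 h and -0.31, 0.67 and -0.16 in clones C3, C4A and C5. The 3 TC71 parental arrays were close together and below the 72 h arrays, and the TC32 clones were the lowest arrays of the series. PSAT1, PHGDH and PSPH, the enzymes of serine synthesis, changed by -0.80, -0.35 and -0.35 in TC32 and by 1.84, 0.84 and 0.26 in TC71. MTHFD2, the mitochondrial folate enzyme, changed by -0.21 and 0.62. The PSAT1 probe set has several alignments in the annotation, so its value is uncertain.

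The amino acid transporters had a median change of 0.55 in TC32 and 1.95 in TC71 over 5 genes. SLC7A11 imports cystine. Its TC32 values were -1.37, 0.76 and 0.67 in the parental arrays, -0.06, 0.87 and 0.91 at 72 h and -1.13, -1.48 and -0.78 in clones C1, C4 and CP. TC71 arrays gave -0.98, 0.05 and -1.27 in the parental arrays, 0.60, 2.45 and 0.79 at 72 h and -0.81, 1.29 and -1.58 in clones C3, C4A and C5. The TC71 groups did not overlap, with 72 h replicate 2 far above the others, and the TC32 clones lay below every 72 h array. One of its 3 probe sets showed less of that difference (-0.43 in the TC32 clones against 72 h) than the others (-2.22 and -2.47).

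SLC7A5 carries large neutral amino acids and pairs with SLC3A2, the heavy chain it shares with SLC7A11. For SLC7A5 the TC32 values were -0.90, -0.04 and 0.20 in the parental arrays, -0.23, 0.72 and 0.90 at 72 h and -0.35, -0.81 and 0.15 in clones C1, C4 and CP. Its TC71 arrays measured -1.40, -0.15 and -1.89 in the parental arrays, 0.71, 0.89 and 0.80 at 72 h and 0.04, 1.24 and -0.20 in clones C3, C4A and C5. The 72 h arrays of TC71 were well above the parental ones and close together, and C4A exceeded them. 
SLC3A2 measured -1.31, 0.16 and 0.25 in the parental arrays, -0.17, 0.86 and 1.28 at 72 h and -0.50, -0.71 and 0.58 in clones C1, C4 and CP in TC32. The TC71 values of SLC3A2 were -1.0, -0.16 and -1.10 in the parental arrays, 1.01, 2.15 and 1.17 at 72 h and -0.20, 1.63 and -0.59 in clones C3, C4A and C5. The average changes at 72 h over both lines were 1.33 ± 0.35 for SLC7A5 and 1.58 ± 0.45 for SLC3A2, with adjusted p of 0.0590 and 0.0759 in limma. For both partners TC71 parental replicates 1 and 3 were the lowest arrays of that line.

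SLC1A4 carries alanine, serine and cysteine. In TC32 SLC1A4 measured -0.11, -0.20 and 0.19 in the parental arrays, 0.49, 0.53 and 0.50 at 72 h and -1.50, -1.67 and -0.18 in clones C1, C4 and CP. In TC71 SLC1A4 measured -0.18, -0.14 and -0.47 in the parental arrays, 0.02, 0.38 and 0.19 at 72 h and -0.78, 0.13 and 1.48 in clones C3, C4A and C5. The TC32 72 h arrays were nearly equal and above every parental array, and in TC71 the high clone was C5, not C4A. SLC1A5, the glutamine carrier, changed by -0.41 in TC32 and 1.08 in TC71.

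The 8 tRNA synthetases and XPOT had a median change of 0.18 in TC32 and 1.19 in TC71. AARS charges tRNA with alanine. In TC32 AARS measured -0.47, -0.15 and 0.08 in the parental arrays, -0.05, 0.94 and 1.07 at 72 h and -0.07, 0.05 and -0.12 in clones C1, C4 and CP. In TC71 AARS measured -1.05, -0.18 and -1.23 in the parental arrays, 0.77, 1.03 and 0.81 at 72 h and 0.85, 1.21 and -0.29 in clones C3, C4A and C5. The TC71 72 h arrays exceeded every parental array, and clones C3 and C4A of TC71 were as high as they were.

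WARS charges tRNA with tryptophan and is also induced by interferon. The TC32 values of WARS were -0.66, 0.67 and 1.51 in the parental arrays, 0.25, 1.52 and 1.99 at 72 h and -0.54, -0.68 and -0.58 in clones C1, C4 and CP. Its TC71 values were -0.95, -0.59 and -1.10 in the parental arrays, 1.14, 2.21 and 1.25 at 72 h and -0.25, 1.78 and -1.17 in clones C3, C4A and C5. The TC71 groups did not overlap, the TC32 clones lay below all 72 h arrays, and C4A was within the TC71 72 h range.

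SARS charges tRNA with serine. TC32 arrays gave -0.80, 0.55 and 1.21 in the parental arrays, -0.10, 0.96 and 1.09 at 72 h and -0.91, -0.86 and -1.05 in clones C1, C4 and CP. The TC71 values of SARS were -0.40, -0.19 and -0.49 in the parental arrays, 0.87, 1.12 and 0.94 at 72 h and 0.10, 0.45 and -0.99 in clones C3, C4A and C5. All 3 TC32 clones, and no TC71 clone but C5, lay below the parental arrays of their line.

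XPOT exports tRNA from the nucleus. In TC32 XPOT measured -0.38, 0.07 and 0.13 in the parental arrays, 0.14, 0.07 and 0.14 at 72 h and -0.23, -0.23 and -0.22 in clones C1, C4 and CP. In TC71 XPOT measured -0.38, -0.22 and -0.44 in the parental arrays, 0.11, 0.48 and 0.09 at 72 h and -0.07, 0.15 and -0.13 in clones C3, C4A and C5. The differences were small, and so was the spread, and the TC71 72 h arrays lay above all parental arrays. The other synthetases changed in TC71 by 1.47 (CARS), 1.19 (MARS), 1.06 (GARS), 0.44 (NARS) and 0.18 (EPRS), and in TC32 by 0.18, 0.40, 0.07, -0.04 and 0.11.

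In the resistant clones, averaged over the lines, all 32 ATF4 targets lay below their 72 h level, as 62.9% of all genes did, with a median change of -0.93. In TC32 alone the fall passed the threshold for 5 genes. These were ATF4 (a log2 change of -0.91 ± 0.26, adjusted p = 0.0356), CEBPB (-1.69 ± 0.48, 0.0308), SHMT2 (-1.25 ± 0.32, 0.0208), SLC1A4 (-1.63 ± 0.46, 0.0325) and SARS (-1.59 ± 0.47, 0.0364), by limma over all genes. That is 5 of 32 genes, where 7.4% of all genes fell and 7.43% rose. All 32 changes were below 0 (37% of all genes), with a median of -0.89, and 12 had an unadjusted p under 0.05, as 13.4% of all genes did in that direction. All 3 clones lay below every 72 h array for 19 genes, against 14.3% of all genes. The count of genes past the threshold was 0 without clone C4, without 72 h replicate 2 or without 72 h replicate 3. It was 1 without C1 or without CP, and 4 without 72 h replicate 1. Calls among all 12750 genes dropped too, from 1890 with every array to 1356 once C4 was removed. Removing 72 h replicate 2 left 1134 genes called, and removing 72 h replicate 3 left 991. The totals were 1620 with C1 removed and 1571 with CP removed.

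In TC71 the median of the change from 72 h to clones was -0.76 and 30 of 32 genes were below 0 (67.1% of all genes), but none passed the adjusted threshold in limma (1.07% of all genes fell and 1.44% rose), and 4 had an unadjusted p under 0.05 (DDIT3, DDIT4, PSAT1 and SARS), where 8.09% of all genes did. Without clone C4A the median was -1.36 and 26 genes had an unadjusted p under 0.05 with a lower value, as 9.04% of all genes did, and none passed the adjusted threshold. The clones lay below all 72 h arrays for 3 genes, ATF4, PSAT1 and SARS, against 13.3% of all genes. Averaged over the lines, 5 of 32 genes fell, where 6.48% of all genes fell and 6.24% rose: ATF4 (-0.72 ± 0.19, adjusted p = 0.0242), DDIT3 (-2.67 ± 0.75, 0.0344), SHMT2 (-0.96 ± 0.23, 0.0161), WARS (-1.63 ± 0.49, 0.0471) and SARS (-1.36 ± 0.33, 0.0174). Leaving out clone C4A raised this count to 20, with 1905 of 12750 genes called in either direction against 1622 with all arrays, and leaving out TC32 72 h replicate 1 raised it to 9, with 1827. The count was 2 without TC32 72 h replicate 2, TC32 72 h replicate 3 or TC71 72 h replicate 2, with 1129, 1089 and 1339 genes called, and 3 without C1 or without C3, with 1517 and 1613.

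Clone C4A stood apart from the other TC71 clones. It was the highest of the 3 clones for 31 of 32 genes, against 27.3% of all genes, and SLC1A4 was the exception. It lay above every TC71 parental array for 32 genes (24.1% of all genes), at or above the lowest 72 h array for 29 (56.7%), and at least 2-fold above both other clones for 20 (1.92%). Clones C3 and C5 were both below every 72 h array for 29 genes, against 20.9% of all genes. The median over the 32 genes was 1.09 in C4A, -0.27 in C3 and -0.55 in C5, next to 0.68, 1.11 and 0.72 in the 72 h arrays and -0.60, -0.10 and -0.77 in the parental ones. Its DDIT3 value was 1.36 and its TRIB3 value 3.43. The compound dose at harvest is not given for any clone.

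Against parental cells, no member passed the adjusted threshold in the clones of either line in limma. In TC32 26 of 32 genes were below 0 (39.2% of all genes), with a median of -0.68, and 6 had an unadjusted p under 0.05 (3.12% of all genes fell and 3.19% rose at the adjusted threshold, and 9.13% fell at the unadjusted one). All 3 TC32 clones lay below parental replicates 2 and 3 for 23 genes, against 16% of all genes. Without TC32 parental replicate 1 the median was -1.09 and 5 genes fell, ATF4, PHGDH, SHMT2, MTHFD2 and SARS, and without C1 only SHMT2, 1 gene, did. Over all genes these fits called 1214 and 961 in either direction, against 805 with all arrays. In TC71 31 of 32 genes were above 0 (33.6% of all genes), with a median of 0.49, and CEBPG, SLC7A5, AARS and XPOT, 4 genes, had an unadjusted p under 0.05 (0.455% of all genes rose and 0.635% fell at the adjusted threshold, and 5.35% rose at the unadjusted one). Without C4A 16 of 32 were above 0 and the median was -0.01. Averaged over the lines the median was -0.07, 20 of 32 genes were below 0 (62.3% of all genes), none passed (3.13% of all genes rose and 3.38% fell), and AARS, 1 gene, had an unadjusted p under 0.05 (9.82% of all genes with a higher value). Without C5 AARS, 1 gene, passed in TC71 and over both lines, where 408 and 1181 of all genes were called, against 139 and 830 with all arrays.

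The resistant change in TC32 minus that in TC71 was below 0 for 31 of 32 genes (34% of all genes), with a median of -1.31. It passed the adjusted threshold in limma for none (0.133% of all genes with a lower value and 0.102% with a higher one) and the unadjusted one for 10 (5.19%). Without C4A the median was -0.69, and without TC32 parental replicate 1 XPOT passed, 1 gene. That last fit called 289 of all genes, against 30 with all arrays. Parental TC32 stood above parental TC71 for 31 of 32 genes (66.1% of all genes), with a median of 0.61. Without TC32 parental replicate 1 the median was 1.07 and 16 genes had an unadjusted p under 0.05 with a higher value, as 5.95% of all genes did, while without TC32 parental replicate 3 the median was 0.30 and 0 genes did (2.04% of all genes). With all arrays no member passed in limma (0.0157% of all genes did with a higher value and 0.0314% with a lower one), and 2, EPRS and XPOT, had an unadjusted p under 0.05 (3.81% of all genes with a higher value). For 2 genes, NUPR1 and EPRS, every TC32 parental array lay above every TC71 one, against 24.9% of all genes.

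Genes around the pathway were taken from lists. The 27 other ATF4-dependent genes had a median change of 0.63 at 72 h over both lines, none past the threshold. LAMP3, a lysosomal membrane protein, changed by 3.46 ± 1.11 (adjusted p = 0.113) and GDF15, a secreted stress hormone, by 2.24 ± 0.73 (0.114). In TC32 LAMP3 measured -0.05, -0.04 and -0.03 in the parental arrays, 0.01, 2.46 and 3.66 at 72 h and -0.06, 3.22 and -0.01 in clones C1, C4 and CP. In TC71 LAMP3 measured -0.05, 0.01 and -0.05 in the parental arrays, 3.47, 6.74 and 4.18 at 72 h and -0.08, 6.38 and -0.07 in clones C3, C4A and C5. It was near 0 in every parental array of both lines, including those where CHAC1 and ASNS were high, and was raised in 5 of the 6 arrays at 72 h and in clones C4 and C4A.
In the TC32 clones CTH, an enzyme of cysteine synthesis, fell by 2.77 against parental cells (adjusted p = 0.0283) and by 2.67 against 72 h (0.0173), where SLC7A1, a carrier of cationic amino acids, fell by 1.36 (0.00238). CTH fell by 1.72 over both lines against parental cells (0.0475) and by 2.02 against 72 h (0.0143). Against 72 h, over both lines, SLC7A1 fell by 0.92 (0.00413) and ALDH18A1, an enzyme of proline synthesis, by 0.50 (0.0431). The call for CTH over both lines against parental cells passed in 5 of 10 other settings and in 3 of the 12 fits that left out 1 array, and that for ALDH18A1 in 3 of 9 settings and 5 of 12 fits. Each of the CTH calls in TC32 passed in 2 of 6 such fits, while CTH and SLC7A1 against 72 h over both lines passed in 12 of 12.

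The other tRNA synthetases served as a comparison for the 8 on the list. The 11 other cytosolic synthetases had a median change of 0.10 at 72 h over both lines and 0.22 in TC71, next to 0.80 and 1.19 for the 8 members and XPOT. HARS rose by 0.34 ± 0.08 (adjusted p = 0.0353), and the largest changes, of YARS and TARS, were 0.38 and 0.35 (0.415 and 0.345). The 12 mitochondrial synthetases had a median of -0.04, with CARS2 at -0.58 and WARS2 at -0.42 (0.114 and 0.434). In the clones against 72 h over both lines HARS fell by 0.49 (0.00204), FARSA by 0.47 (0.0110) and HARS2 by 0.28 (0.0170), while KARS rose by 0.25 (0.0367). All 4 also passed in TC32, with changes of -0.55 (0.00503), -0.50 (0.0363), -0.35 (0.0293) and 0.52 (0.00476). In the TC71 clones against 72 h the highest change among the 11 other cytosolic synthetases was -0.01, so KARS rose in TC32 only. CARS2 fell by 0.80 in the clones against parental cells over both lines (0.0237). With 1 array left out, the 72 h call for HARS passed in 2 of 12 fits (highest adjusted p 0.101), that for CARS2 in 8 of 12 and, against 72 h over both lines, that for KARS in 3 of 12. In TC32 against 72 h FARSA and HARS2 each passed in 2 of 6 fits. The calls for HARS, FARSA and HARS2 against 72 h over both lines passed in 12 of 12. Expression of a synthetase here is its RNA and not its charging activity.

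Upstream of ATF4, the 18 genes for eIF2 kinases, eIF2, its exchange factor eIF2B and its phosphatase had a median change of -0.04 at 72 h over both lines. PPP1CB, a phosphatase catalytic subunit, fell by 0.35 ± 0.07 (adjusted p = 0.0182), and DNAJC3 (p58IPK, an inhibitor of eIF2 kinases) and PPP1CA changed by 0.55 (0.0868) and 0.42 (0.260). In TC32 alone DNAJC3 rose by 1.33 ± 0.23 (0.0130) and PPP1CB fell by 0.50 ± 0.09 (0.0162). In TC71 the changes of the 18 genes ran from -0.29 to 0.68. The rise of DNAJC3 and the fall of PPP1CB were thus smaller there, or absent, and the means over both lines hide this. In the TC32 clones against parental cells, EIF2B2, a subunit of eIF2B, fell by 1.08 ± 0.16 (0.00356) and IMPACT, an inhibitor of GCN2, fell by 0.80 ± 0.13 (0.00398). In the clones against parental cells over both lines EIF2B2 fell by 0.64 (0.00712).
In the TC32 clones against 72 h, EIF2B2 fell by 1.46 (0.000248), DNAJC3 by 1.37 (0.00227), KIAA0141 (DELE1, which relays mitochondrial stress to HRI) by 1.02 (0.0238) and PPP1CA by 0.96 (0.0259). In the clones against 72 h over both lines EIF2B2 fell by 0.96 (0.000468), DNAJC3 by 0.90 (0.00447) and IMPACT by 0.33 (0.0284), and PPP1CB rose by 0.41 (0.00207). The lowest change of this list in the TC71 clones against 72 h was -0.94, so EIF2B2 and DNAJC3 fell less there than in TC32. The mean for IMPACT hides a difference between the lines, as this gene fell by 0.83 in TC32 and did not fall in TC71. With 1 array left out, the 72 h calls passed in 8 of 12 fits for PPP1CB over both lines and in 3 of 6 for each of DNAJC3 and PPP1CB in TC32, and against 72 h KIAA0141 and PPP1CA in TC32 each passed in 2 of 6 and IMPACT over both lines in 7 of 12. The calls for EIF2B2 passed in every such fit. The kinases were read after their values were seen. EIF2AK2 (PKR) stood at 2.22 in clone C4 of TC32 and at 1.80 in TC71 72 h replicate 2, and EIF2AK3 (PERK) at 1.03 in the latter. Kinase activity and eIF2 phosphorylation cannot be read from RNA.

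Chaperones of the endoplasmic reticulum, which the ATF6 and XBP1 arms of the unfolded protein response control, had a median change of 0.47 at 72 h over both lines and none of 16 passed. HYOU1 and SDF2L1 changed by 1.37 ± 0.42 and 1.18 ± 0.45 (adjusted p = 0.0940 and 0.189). In TC71 the list median was 0.15, 1.76 and 0.23 in 72 h replicates 1, 2 and 3, whereas the ATF4 targets were at 0.68, 1.11 and 0.72. In clone C4A it was 0.21 next to 1.09 for the targets. HYOU1 measured 0.62, 3.05 and 0.69 in those 72 h arrays and 0.86 in C4A. The chaperone median was highest in 1 TC71 array, but all 3 of these 72 h arrays lay above the TC71 parental arrays (-0.09, -0.17 and -0.08). The change of the chaperones in TC71 at 72 h had a median of 0.76 (from 0.13 to 1.74), next to 1.58 for the targets. Whether the 2 lists changed apart from each other was not tested.

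The 8 Ewing sarcoma markers and the markers of other cells were read as changes. At 72 h over both lines CD99, the surface protein used in diagnosis, and NKX2-2, a transcription factor gene induced by EWS-FLI1, changed by -0.39 and 0.36 (adjusted p = 0.279 and 0.546). PDGFRB and DCN, fibroblast markers, changed by -0.90 and -0.79 (0.280 and 0.516). In the clones against parental cells CCND1, the cyclin D1 gene, rose by 0.59 in TC32 (0.0413), by 1.16 in TC71 (0.00497) and by 0.87 over both lines (0.00113), and PRKCB, a protein kinase C gene, rose by 0.44 over both lines (0.0135). Against 72 h over both lines STEAP1, a membrane reductase, rose by 0.69 (0.00566), CCND1 by 0.69 (0.00233) and PRKCB by 0.52 (0.00355). In TC32 alone STEAP1 rose by 0.82 (0.0105) and PRKCB by 0.46 (0.0292), and in TC71 alone CCND1 rose by 1.08 (0.00395) and PRKCB by 0.59 (0.0341). LUM, a fibroblast matrix protein, rose by 3.67 in the TC32 clones against 72 h (0.0229). With 1 array left out, LUM passed in 1 of 6 fits, as did CCND1 in TC32 against parental cells and PRKCB in TC71 against 72 h, and PRKCB in TC32 against 72 h passed in 2 of 6. These genes were not part of the ATF4 list, and their part in its changes was not tested.

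**Figure D4:**
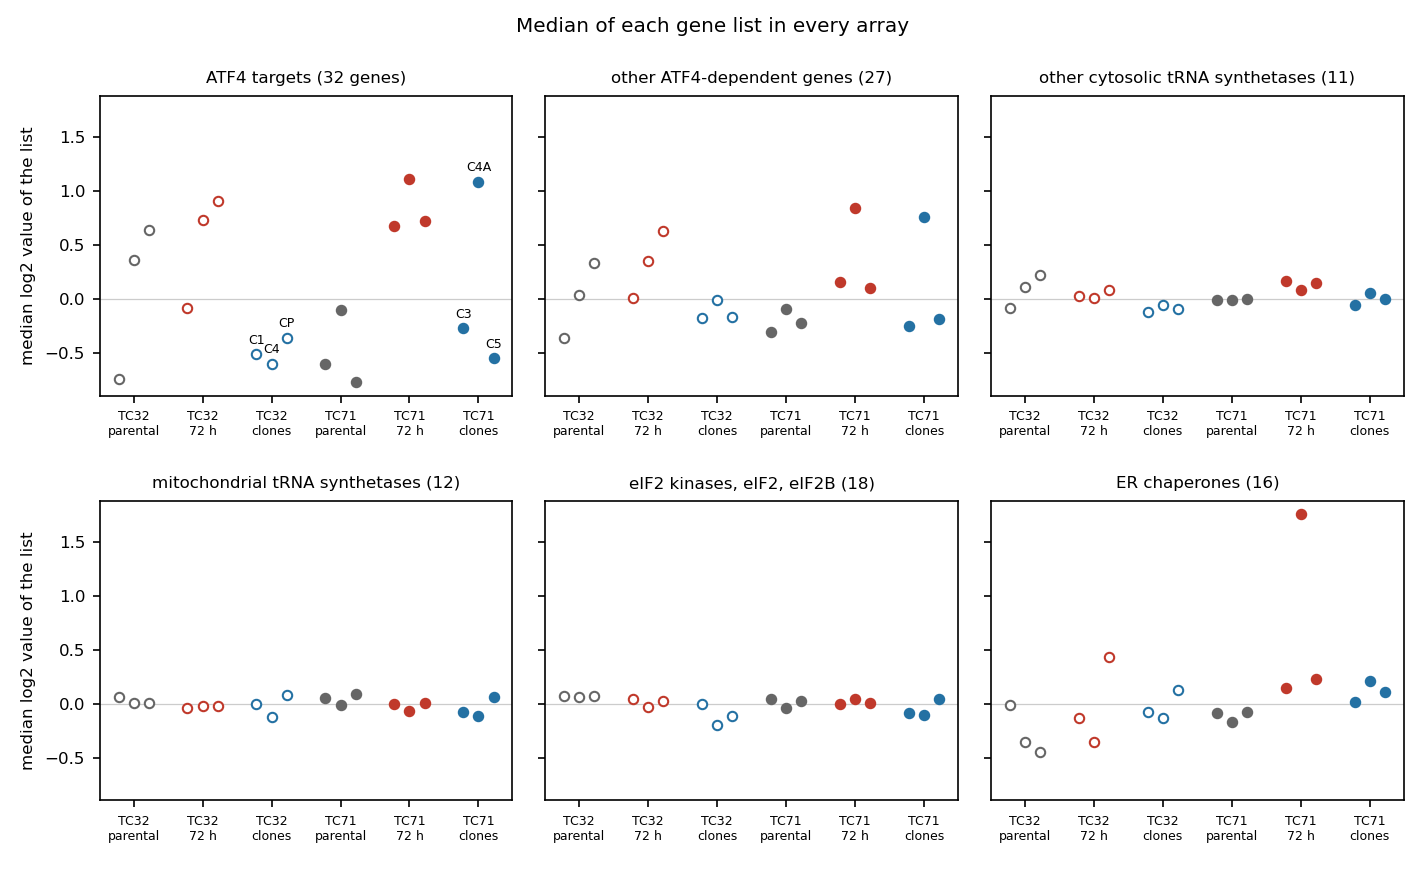
Median log2 value of 6 gene lists in each array, by group (TC32 open, TC71 filled; grey parental, red 72 h, blue clones, 3 arrays a group). The ATF4 targets reach 1.11 in TC71 at 72 h and 1.09 in clone C4A, the ER chaperones reach 1.76 in TC71 72 h replicate 2, and the 2 other synthetase lists stay within 0.22 of 0.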

How the data were processed

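RNA was measured on 18 Affymetrix U133A 2.0 arrays, 3 in each of 6 groups. Per the labels, the authors used GeneSpring GX 12.1, keeping the defaults. The deposited values are log2 levels of 22277 probe sets, each relative to its median over the arrays, which was checked in the files. Intensities and detection calls were not used here, so levels near background cannot be recognised, and the number of arrays limits the precision.

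Probe sets with 1 gene (20374) were named through the platform annotation and averaged to 12750 genes. Control probe sets (62), those with several genes (583) and those with none (1258) were left out. A model of 6 group means was fitted to all 18 arrays with limma 3.58.1 (R 4.3.3), with 12 residual degrees of freedom, and 12 contrasts were tested with Benjamini-Hochberg adjustment over all genes at 0.05. The fit was also run on simulated data with independent noise of equal spread in every array. That run cannot show how the fit behaves where some arrays stand apart from their group, as here. Errors are standard errors of the fit unless stated.

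Values in every array are given for members past the threshold in any comparison, for ATF4, DDIT3, ATF3, ASNS, TRIB3 and CHAC1 in any case, and for the 12 members with the largest average change at 72 h. Of each other list, up to 4 genes past the threshold in a comparison and the 2 with the largest average change at 72 h are named. The members and lists were chosen with earlier results of these data known. Alternatives were array weights, quantile normalization, fitting only the compared arrays, an SD filter, a stricter threshold, other probe set rules, a replicate block, averaging TC71 72 h replicates 1 and 3, the array median or trend in the fit, and leaving out each array. Leaving out pairs of arrays was chosen after seeing the data. Promoter sequences are from RefSeq, GRCh38.p14. Figures were drawn with matplotlib 3.10.9 in Python 3.11.15.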

Additional observations from a re-analysis of the deposited data

Results flagged for a closer look

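IMPACT, an inhibitor of the eIF2 kinase GCN2, was the 1 gene among the members and lists whose resistant change differed between the lines past the adjusted threshold. The ATF4 targets had a median difference of -1.31, larger than that of IMPACT, but none of them passed. Its resistant change in TC32 minus that in TC71 was -1.10 ± 0.18 (adjusted p = 0.0275 in limma over all genes). In 10 other settings the difference ran from -1.26 to -0.90, with an adjusted p from 0.00652 to 0.198, and it passed in 9. With 1 array left out it passed in 8 of 12 fits, and the highest adjusted p was 0.0867. IMPACT measured -0.19, 0.05 and 0.30 in the TC32 parental arrays and -0.59, -1.06 and -0.59 in clones C1, C4 and CP. In TC71 it measured -0.17, -0.06 and -0.20 in the parental arrays and 0.23, 0.09 and 0.15 in clones C3, C4A and C5. All TC32 clones lay below all TC32 parental arrays and all TC71 clones above all TC71 parental arrays.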

How the results depend on the processing

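The list medians kept their sign under every setting run, except that the median for TC32 at 72 h turned to -0.10 without TC32 parental replicate 1, the one for the TC71 clones against parental to -0.01 without C4A, and the near-0 median of the clones against parental over both lines to 0.07 with quantile normalization and to between 0.01 and 0.11 without TC32 parental replicate 3, TC71 parental replicate 2, C3 or C5. The counts past the threshold did not hold as well, and the cause was not tested. Array weights gave 5 members in TC32 at 72 h, 28 in TC71 at 72 h, 24 over both lines at 72 h, 13 for the 72 h difference between the lines, 4 and 11 for the TC32 clones against parental and against 72 h, and 23 between the parental lines. With those weights far more genes of all kinds passed as well, 2648, 2972, 3454, 1947, 1440, 2599 and 1861 of 12750 in the same order, against 281, 19, 380, 48, 805, 1890 and 6 without weights. A second quantile normalization gave 7 in TC71 at 72 h, 0 for the TC32 clones against 72 h and 1 for the clones against 72 h over both lines. It called 510, 1077 and 1191 of 12750 genes in that order, against 19, 1890 and 1622 in the main fit. The fit to the compared arrays alone gave 7 in TC71 at 72 h, with 290 genes called. Genes with an SD of at least 0.1 gave 1 for the TC32 clones against parental and 12 for the clones against 72 h over both lines. Of the 8132 genes past that filter 1102 and 1947 were called, against 805 and 1622 of 12750 in the main fit. At an adjusted p under 0.01 there was 0 in TC32 clones against 72 h, 0 over both lines at 72 h and 0 for the clones against 72 h over both lines. Over all 12750 genes 834, 36 and 601 passed in that order. Leaving out the _x_at and _s_at probe sets left 21 members and 8859 genes. The count was then 3 for TC32 clones against 72 h and 3 over both lines, with 1086 and 986 genes called. The probe set with the largest SD gave 3 in the former, with 1911 genes called.

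Averaging TC71 72 h replicates 1 and 3 gave 0 over both lines at 72 h. Leaving out TC32 parental replicate 1 and TC71 parental replicate 2 together, chosen after seeing the data, gave 1 at 72 h over both lines, 1 for the 72 h difference and 1 for the resistant difference. It called 169, 77 and 177 of all genes in that order, against 380, 48 and 30 in the main fit. Leaving out C4 and C4A together, also chosen after seeing the data, gave 15 for the clones against 72 h over both lines. There 1611 of all genes were called, against 1622 in the main fit. Leaving out each array in turn gave 0 to 5 over both lines at 72 h, 2 to 20 for the clones against 72 h and 0 to 1 for the clones against parental, 0 to 4 and 0 to 5 for the TC32 clones against 72 h and against parental, 0 to 1 for the TC71 clones against parental, 0 to 1 for the resistant difference, and 0 in each remaining comparison. The 20 came without C4A, with 1905 of all genes called. The 5 for the TC32 clones against parental came without TC32 parental replicate 1, with 1214 called.

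The replicate block of parental and 72 h arrays gave 18 members over both lines at 72 h and 4 for the difference between the lines, where it called 1104 and 115 of 12750 genes. Arrays of the same number had correlations of their deviations of 0.19, 0.01 and 0.33 in TC32 and of -0.02, 0.04 and 0.03 in TC71, and not every array correlated best with its own number, so the numbers are not taken to pair the arrays.

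In TC32 at 72 h the change of some members turned sign. With array weights it was 0.00 for DDIT4, -0.37 for CHAC1 and -0.30 for ASNS. With quantile normalization it was -0.15 for ASNS and -0.08 for SHMT2, and SHMT2 was at -0.10 both without the _x_at and _s_at probe sets and with the probe set of largest SD. Leaving out each array gave -0.03 to 0.50 for ATF4, -0.48 to 0.94 for DDIT4, -1.35 to 0.65 for NUPR1, -1.26 to 1.61 for CHAC1, -0.93 to 0.54 for ASNS, -0.20 to 0.41 for SHMT2, -0.15 to 0.92 for SLC7A11 and -0.23 to 0.78 for SARS.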
